A study of Mus musculus with 8 samples.

Results

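The glycolytic enzymes described here are 10 genes of the mouse testis, some of which come as a germ cell form beside a general form of the same enzyme. Members were the non-control probes whose gene name in the array files was Pgk1, Pgk2, Ldha, Ldhb, Ldhc, Pgam1, Pgam2, Hk1, Hk2 or Tpi1, and 17 of the 41174 non-control probes met that rule, 10 of 27962 gene names. Of these, 3 probes measure the germ cell forms Pgk2, Ldhc and Pgam2, and 14 measure the 7 general forms. RNA of whole testicular cells was compared between 4 samples of VRK1+/+ male mice, called wild type, and 4 of VRK1-/- male mice, called mutant. Each sample was hybridised to 1 single-colour Agilent array. VRK1 is a nuclear serine/threonine kinase. The samples are described as biological replicates, with no label that ties them to animals, so p-values measure only the spread between these samples. The sources used here give no strain, no age and no kind of allele.

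Glycolysis turns glucose into pyruvate, and lactate dehydrogenase turns pyruvate into lactate and back. In the testis the Sertoli cells, which nurse the germ cells, release lactate that spermatocytes and spermatids burn, while sperm later depend on their own glycolysis for movement. Several steps are taken over during meiosis by enzymes of other genes. Pgk1 is X-linked and is silenced with the sex chromosomes in spermatocytes, Pgk2 is an autosomal copy of it without introns, Ldhc encodes the lactate dehydrogenase of germ cells, and Pgam2 encodes the phosphoglycerate mutase found in muscle and in late germ cells.

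The 250 bases before the RefSeq start of 3 germ cell forms and of 1 general form of the same enzyme are shown, because these stretches, at the first listed starts, differ in CpG content. Sequences are those of RefSeq on build GRCm38.p6 and read 5′ to 3′ along the gene. Capitals mark matches on either strand to the TATA box motif TATAAA, the CCAAT box motif CCAAT, the GC box motif GGGCGG, the half-site TGACG of the cyclic AMP response element, and the full element TGACGTCA. A full element also holds the half-site on both strands.
Pgk2: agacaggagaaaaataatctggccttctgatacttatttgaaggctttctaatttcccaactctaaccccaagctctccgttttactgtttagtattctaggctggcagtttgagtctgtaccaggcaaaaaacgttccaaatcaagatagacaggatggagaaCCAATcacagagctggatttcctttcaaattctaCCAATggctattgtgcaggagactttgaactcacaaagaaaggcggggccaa
Pgk1: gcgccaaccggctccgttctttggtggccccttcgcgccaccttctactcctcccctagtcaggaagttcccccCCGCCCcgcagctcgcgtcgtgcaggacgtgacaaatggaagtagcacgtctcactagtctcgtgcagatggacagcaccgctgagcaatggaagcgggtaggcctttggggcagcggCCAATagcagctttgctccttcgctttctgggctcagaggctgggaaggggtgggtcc
Ldhc: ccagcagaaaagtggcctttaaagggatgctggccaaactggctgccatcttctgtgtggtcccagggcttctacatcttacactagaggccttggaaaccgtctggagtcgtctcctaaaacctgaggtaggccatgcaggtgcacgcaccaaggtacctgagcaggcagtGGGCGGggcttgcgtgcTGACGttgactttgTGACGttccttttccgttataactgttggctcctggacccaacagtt
Ldha: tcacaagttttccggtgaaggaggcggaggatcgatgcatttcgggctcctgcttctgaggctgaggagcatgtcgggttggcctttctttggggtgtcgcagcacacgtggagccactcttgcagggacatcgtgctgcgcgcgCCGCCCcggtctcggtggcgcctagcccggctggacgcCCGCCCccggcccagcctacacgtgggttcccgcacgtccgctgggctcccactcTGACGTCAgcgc
Pgam2: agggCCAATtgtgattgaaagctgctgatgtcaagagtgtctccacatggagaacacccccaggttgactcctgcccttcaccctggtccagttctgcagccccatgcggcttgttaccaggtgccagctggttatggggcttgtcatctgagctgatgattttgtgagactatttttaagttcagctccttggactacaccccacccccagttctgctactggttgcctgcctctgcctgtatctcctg
Pgam1: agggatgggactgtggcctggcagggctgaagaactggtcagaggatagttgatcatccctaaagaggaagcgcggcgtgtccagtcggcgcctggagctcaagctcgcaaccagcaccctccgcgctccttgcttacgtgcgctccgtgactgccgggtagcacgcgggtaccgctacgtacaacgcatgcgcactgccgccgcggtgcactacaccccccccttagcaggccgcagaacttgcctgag
Pgk2 lies at chr17:40208610-40208859 on the minus strand and Pgk1 at chrX:106186850-106187099 on the plus strand. Ldhc lies at chr7:46861013-46861262 and Ldha at chr7:46845554-46845803, both on the plus strand. Pgam2 lies at chr11:5803797-5804046 on the minus strand and Pgam1 at chr19:41911621-41911870 on the plus strand.

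All 10 members had a promoter in the RefSeq table, with 13 starts in all, and for Ldha and Ldhc the first of their 2 starts is shown. The 3 germ cell stretches held 3, 8 and 1 CpG dinucleotides in Pgk2, Ldhc and Pgam2. Those of Pgk1, Ldha and Pgam1 held 17, 25 and 22. The ratio of observed to expected CpG was 0.27, 0.43 and 0.06 in the germ cell forms and 0.69, 0.89 and 0.86 in the general forms. The second starts, not shown, held 9 CpG (ratio 0.50) in Ldha and 3 (0.15) in Ldhc, so the second Ldha stretch lay near the first of Ldhc. Other germ cell enzymes described below did not share a low ratio throughout. It was 1.12 in Eno4, 0.76 in Pfkfb4 and 0.64 in Pdha2, but 0.45 in Aldoart2, 0.17 in Ldhal6b and 0.0 and 0.05 in Gapdhs. Of the other general members, Hk2 had 0.85, Ldhb 0.72 and Tpi1 0.63, and the starts of Hk1 had 0.57 and 0.07. Over all 32851 promoters of the same length, 34.0% had a ratio above 0.6. Ldha was the one of the 6 stretches shown with TGACGTCA, which 1.55% of all promoters held. Ldhc held 2 matches to TGACG, present in 17.8% of promoters. Pgk2 held 2 matches to CCAAT, while Pgk1 and Pgam2 held 1 each, against 33.8% of promoters with any. GGGCGG was matched once in Pgk1 and Ldhc and at 2 places in Ldha, and 32.7% of promoters held it. TATAAA was in none of the 6, and in 12.4% of promoters.

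The arrays of the genotypes differed in brightness. The 75th percentile of the signal, to which each array was scaled, ran from 679.65 to 790.02 in wild type and from 927.87 to 1124.3 in the mutant. All wild-type arrays shared 1 slide and scan and all mutant arrays another, and in every value below the slide and the genotype cannot be told apart. On the 2 probes of Vrk1 itself, the lowest wild-type levels were -1.54 and -0.89 and the highest mutant levels -3.46 and -2.72, so the targeted RNA was lower on every mutant array. Levels here are the log2 of the signal relative to that percentile. Differences are mutant minus wild type, with the standard error (SE) and the adjusted p from limma over all 33718 probes tested, and a probe was called at an adjusted p under 0.05.

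All 17 member probes were well above background on all 8 arrays. Of these, 5 were higher and 4 lower in the mutant, and 8 were not called. Over all probes tested, 21.2% were called higher, 10.8% lower and 32.1% in either direction. By gene, with 1 probe for each, Pgk1, Ldhb, Pgam1 and Hk2 were higher, Ldha, Ldhc and Pgam2 were lower, and Pgk2, Hk1 and Tpi1 were not called. The groups did not overlap on 4 probes with the mutant above and on 4 with the mutant below, where 21.6% and 13.8% of all probes tested (35.3% together) did not overlap in those directions. The split of calls depended on the scaling, among the members as over all probes tested. With normexp background correction 4 members were higher and 1 lower, against 6.2% and 9.19% of all probes. Scaling to the median gave 2 and 6, against 13.3% and 26%. Quantile normalization gave 5 and 0 by limma, against 13.1% and 10%, and cyclic loess 6 and 0, against 15.3% and 8.08%. At an unadjusted limma p under 0.05, quantile normalization gave 1 lower member probe and cyclic loess 0, where 19.4% and 15.9% of all probes were lower. With 1 array left out, the lower member probes came to 1 without wild type 2 or 3 or mutant 1 or 3 (replicate numbers). In those fits 5.33%, 5.01%, 5.24% and 4.94% of all probes were lower, so the share over all probes dropped as well. Without mutant replicates 1 and 4, whose epididymal transcripts were high, limma called 0 member probes in either direction, with 3.91% higher and 0.652% lower over all probes. At an unadjusted p under 0.05 that fit gave 4 higher and 4 lower member probes, against 19.7% and 9.72% of all probes.

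**Figure D1:**
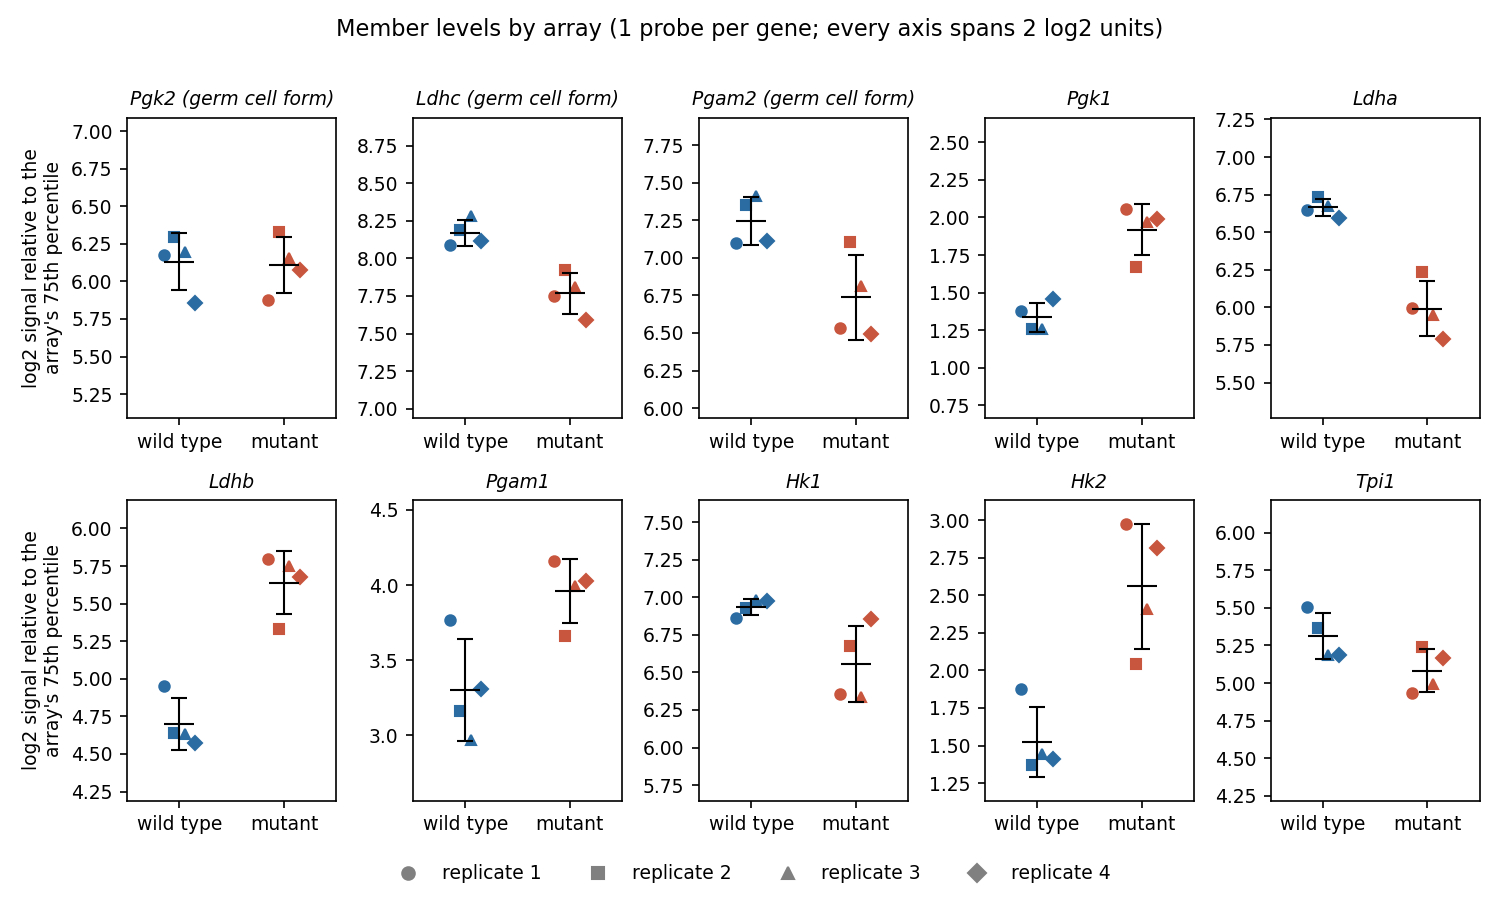
Log2 signal relative to the 75th percentile of each array (vertical axis) in the 4 wild-type (blue) and 4 mutant (red) samples, 1 probe per gene, with the replicate shown by the symbol, the mean by a bar and the SD by whiskers. Every axis spans 2 log2 units. Ldhb and Hk2 sat higher in all mutant samples, Ldha and Ldhc sat lower, and the Pgk2 samples lay over each other.

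Pgk1, the general phosphoglycerate kinase, was 1.50-fold higher in the mutant. Its probe at chrX:101530787-101530846 (mm7, the build of the array files) read 1.37, 1.26, 1.26 and 1.46 in wild-type replicates 1 to 4 and 2.05, 1.67, 1.97 and 1.99 in the mutant. All mutant samples lay above all wild-type samples. The difference was 0.58 (SE 0.14, adjusted p = 0.0127). With scaling to the median it was 0.37 and did not pass (adjusted p = 0.0661). The other Pgk1 probe shares 38 of its bases with the first and gave 0.60 (adjusted p = 0.0151), so it is no separate measurement. That probe missed the threshold with scaling to the median (0.38, adjusted p = 0.0698) and with normexp (0.45, adjusted p = 0.0543). The array files list 2 predicted gene models beside both Pgk1 probes and beside the Pgam1 probe, so near-identical copies could add to these signals. In this mixed tissue, fewer cells of a type and less RNA per cell cannot be told apart.

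After scaling, Pgk2, the germ cell kinase, did not differ between genotypes by more than the spread of the samples. Its probe at chr17:38247663-38247722 read 6.18, 6.29, 6.20 and 5.85 in wild type and 5.87, 6.33, 6.16 and 6.08 in the mutant. Both groups covered the same range at these scaled levels. Before scaling, the signals ran from 45691 to 53535 in wild type and from 56519 to 75955 in the mutant, without overlap. The difference was -0.02 (SE 0.15, 95% interval -0.36 to 0.32, adjusted p = 0.925). Its sign turned with quantile (0.41) and cyclic loess normalization (0.46, adjusted p = 0.0390), the second of which called it higher. Wild-type replicate 4 and mutant replicate 1 were the lowest samples, and the sign turned when 1 of 3 arrays was dropped: wild type 2 (0.03), wild type 3 (0.0016) or mutant 1 (0.057).

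After scaling, the A and C forms of the 3 lactate dehydrogenase subunits were lower and the B form higher in the mutant. Ldha, the A subunit, was measured at chr7:43031720-43031779. Its levels were 6.65, 6.74, 6.68 and 6.60 in wild type and 5.99, 6.24, 5.95 and 5.79 in the mutant, with no overlap. It fell by 0.67 on the log2 scale, or 1.59-fold (SE 0.13, adjusted p = 0.00743). Before scaling, its signals overlapped, from 68151 to 76446 in wild type and from 59765 to 69931 in the mutant. The difference was -0.26 with quantile and -0.18 with cyclic loess normalization, and neither passed. The other Ldha probe, whose 60 bases are listed across 930 bases of the gene, gave -0.49 (adjusted p = 0.0340), and passed neither with those normalizations nor with normexp (-0.50, adjusted p = 0.0589).

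Ldhb, the B subunit, rose 1.92-fold. Its probe at chr6:142578009-142578068 read 4.96, 4.64, 4.64 and 4.57 in wild type and 5.80, 5.33, 5.75 and 5.67 in the mutant. The lowest mutant sample, replicate 2, still lay above the highest wild-type sample, replicate 1. The difference was 0.94 (SE 0.15, adjusted p = 0.00358) and passed under all 4 other scalings, where it ran from 0.72 to 1.36. Without mutant replicates 1 and 4 it was 0.84 (adjusted p = 0.0573).

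Ldhc, the germ cell subunit, was 1.32-fold lower in the mutant after scaling. It was measured at chr7:43054105-43054164, on the same chromosome as Ldha. Levels were 8.09, 8.19, 8.28 and 8.12 in wild type and 7.75, 7.92, 7.81 and 7.59 in the mutant, with no overlap. Before scaling, the Ldhc signals did overlap. They ran from 185354 to 224743 in wild type and from 208090 to 224754 in the mutant. The difference was -0.40 (SE 0.13, adjusted p = 0.0389), but it passed in 1 of the 4 other scalings. It was -0.29 with normexp (adjusted p = 0.143), -0.06 with quantile and 0.19 with cyclic loess normalization, and -0.62 with scaling to the median (adjusted p = 0.00836). The call was also lost without wild type 2 or 3, or without mutant 1, 3 or 4 (replicate numbers), with adjusted p from 0.0788 to 0.105 and differences from -0.34 to -0.41.

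The phosphoglycerate mutases moved in opposite directions. Pgam1, the general form, was measured at chr19:41812247-41812306 and read 3.77, 3.16, 2.97 and 3.31 in wild type and 4.16, 3.66, 4.00 and 4.02 in the mutant. Wild-type replicate 1 lay above mutant replicate 2, so the groups overlapped. The difference was 0.66 (SE 0.19, adjusted p = 0.0290), a 1.58-fold rise. It was 0.44 with scaling to the median (adjusted p = 0.110).

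Pgam2, the muscle and germ cell form, was measured by a probe whose bases are listed over chr11:5753822-5755040, a span of 1219 bases, so its bases lie apart in the genome. The whole probe is shown because Pgam2 rests on it alone.
Pgam2 probe: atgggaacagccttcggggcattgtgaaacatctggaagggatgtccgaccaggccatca
Its levels were 7.10, 7.35, 7.41 and 7.11 in wild type and 6.54, 7.11, 6.81 and 6.49 in the mutant. Mutant replicate 2 reached the lower wild-type samples. Before scaling, the signals ran from 93179 to 123145 in wild type and from 89470 to 127875 in the mutant. Pgam2 was 1.42-fold lower, with a difference of -0.51 (SE 0.17, adjusted p = 0.0460) that was -0.14 with quantile and 0.03 with cyclic loess normalization. The call was also lost with normexp (-0.40, adjusted p = 0.107) and with no filter on dim probes (adjusted p = 0.0585). Without wild type 2 or 3, or mutant 1, 3 or 4, Pgam1 (0.55 to 0.65, adjusted p 0.0669 to 0.0789) and Pgam2 (-0.43 to -0.53, adjusted p 0.0835 to 0.116) both missed the threshold. Of 9 skeletal muscle genes, 1 was called, Actn3, which was higher (0.70, adjusted p = 0.0499). Over all probes tested, 21.2% were higher and 10.8% lower. The median difference of the 9 was 0.04.

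Hk2 and Hk1 encode hexokinases, which trap glucose in the cell as its phosphate at the head of glycolysis. Hk2, measured at chr6:82750613-82750672, read 1.87, 1.37, 1.44 and 1.41 in wild type and 2.97, 2.04, 2.41 and 2.81 in the mutant. The groups did not overlap, and mutant replicates 1 and 4 were the highest. The 2.05-fold rise (1.03, SE 0.22, adjusted p = 0.0090) passed under all 4 other scalings, from 0.82 to 1.25. Without mutant replicates 1 and 4 it was 0.70 (adjusted p = 0.0891). Tpi1, the triose phosphate isomerase, read 5.50, 5.36, 5.19 and 5.19 in wild type and 4.93, 5.24, 4.99 and 5.16 in the mutant. Its difference of -0.23 (SE 0.14, adjusted p = 0.221) did not pass, and it was 0.13 and 0.20 with quantile and cyclic loess normalization. With scaling to the median it was -0.45 and passed (adjusted p = 0.0319).

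**Figure D2:**
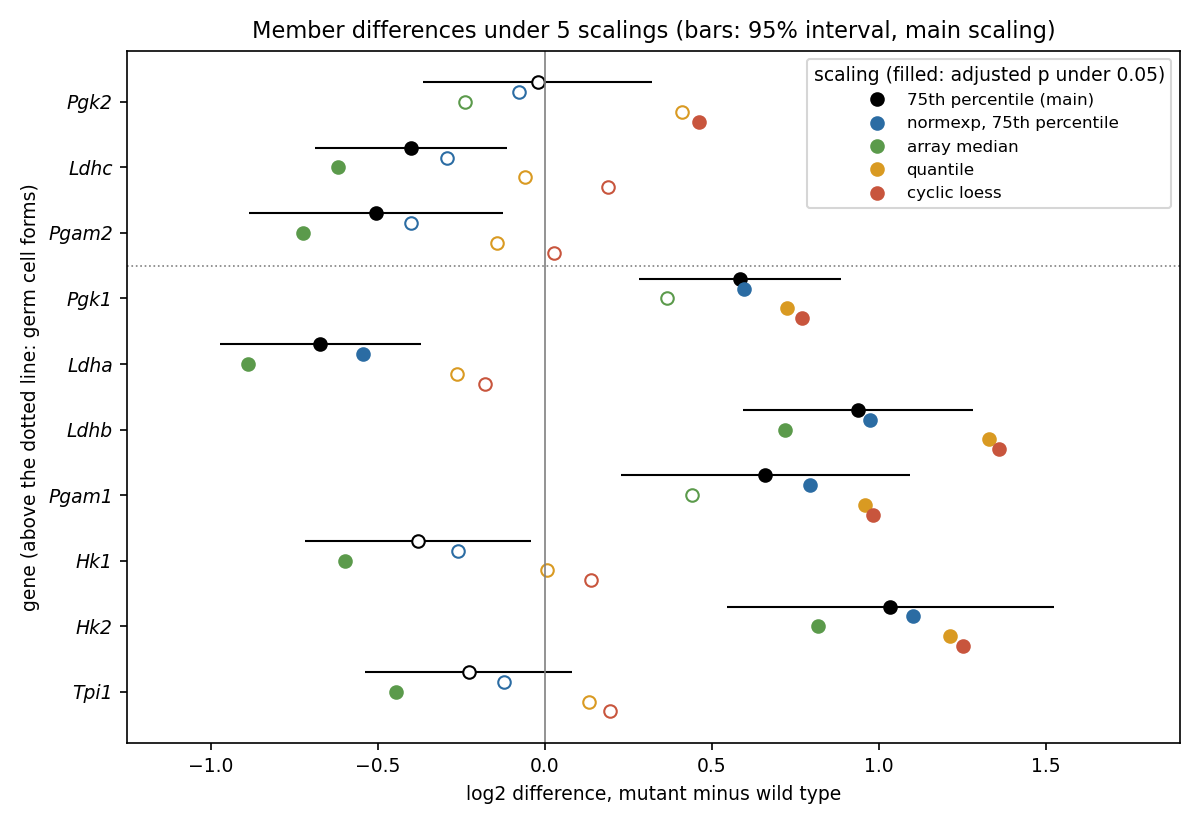
Mutant minus wild type on the log2 scale (horizontal axis) for each member under the main scaling (black, with its 95% interval) and 4 others (colours), where filled points passed an adjusted p of 0.05. Ldhb and Hk2 were filled under all 5 scalings, while Pgk2, Ldhc, Pgam2, Hk1 and Tpi1 lay on both sides of 0.

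Among the called member probes, the direction varied with the level on the array. Among the 269 probes of all genes with a mean level over 6, the median difference was -0.44 and 38.3% were called lower, and Pgk2, Ldhc, Pgam2, 1 Ldha probe and 1 Hk1 probe lie there, 3 of these 5 called lower. Among the 1204 probes between 4 and 6, 37.3% were called lower and 2.82% higher. In that band Ldhb was higher, the other Ldha probe lower and Tpi1 not called. Pgk1, Pgam1 and Hk2 lie in lower bands. There 14.9% (0 to 2) and 8.39% (2 to 4) were called higher, and 16.5% and 28.1% lower. The other Hk1 probes lie below 4 as well. None of them was called, with differences from -0.51 to -0.02. The median difference of all probes tested was 0.05. It was -0.23 with normexp, -0.17 with scaling to the median and -0.06 with quantile normalization. Relative to that median, Ldhc was -0.45 in the main scaling and -0.06 with normexp, and Ldha was -0.72 and -0.32. Ldhb was 0.89 and 1.20.

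Within an array, the scaling cancels from the difference between a germ cell form and its general partner, so the change of that difference between genotypes was compared for 4 pairs. A probe reads on its own scale, and the differences do not rank the forms by abundance. Pgk2 minus Pgk1 went from 4.79 ± 0.28 to 4.19 ± 0.35 (SD, n = 4 each) between wild type and mutant, a change of -0.60. Ldhc minus Ldhb went from 3.47 ± 0.23 to 2.13 ± 0.31 (SD, n = 4 each), a change of -1.34, with 3.14, 3.55, 3.65 and 3.54 in wild type and 1.96, 2.59, 2.06 and 1.92 in the mutant. Pgam2 minus Pgam1 went from 3.94 ± 0.49 to 2.78 ± 0.48 (SD, n = 4 each), a change of -1.17. Ldhc minus Ldha differed in the other direction, from 1.51 ± 0.07 to 1.78 ± 0.07 (SD, n = 4 each), a change of 0.27.

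The 2 pairs of Ldhc did not overlap between genotypes, and those of Pgk2 and Pgam2 did. The two-sided exact permutation test gave p = 0.0286 for both Ldhc pairs, the smallest that 4 against 4 arrays allow, and p = 0.0571 for the Pgk2 and Pgam2 pairs. Adjusted over the 4 pairs, all were 0.0571 and none passed. Cyclic loess normalization gave -0.31, 0.37, -1.17 and -0.95 for the Pgk2 to Pgk1, Ldhc to Ldha, Ldhc to Ldhb and Pgam2 to Pgam1 changes, each in the direction of the main value. The Ldhc to Ldha change was 0.09 with the other Ldha probe.

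**Figure D3:**
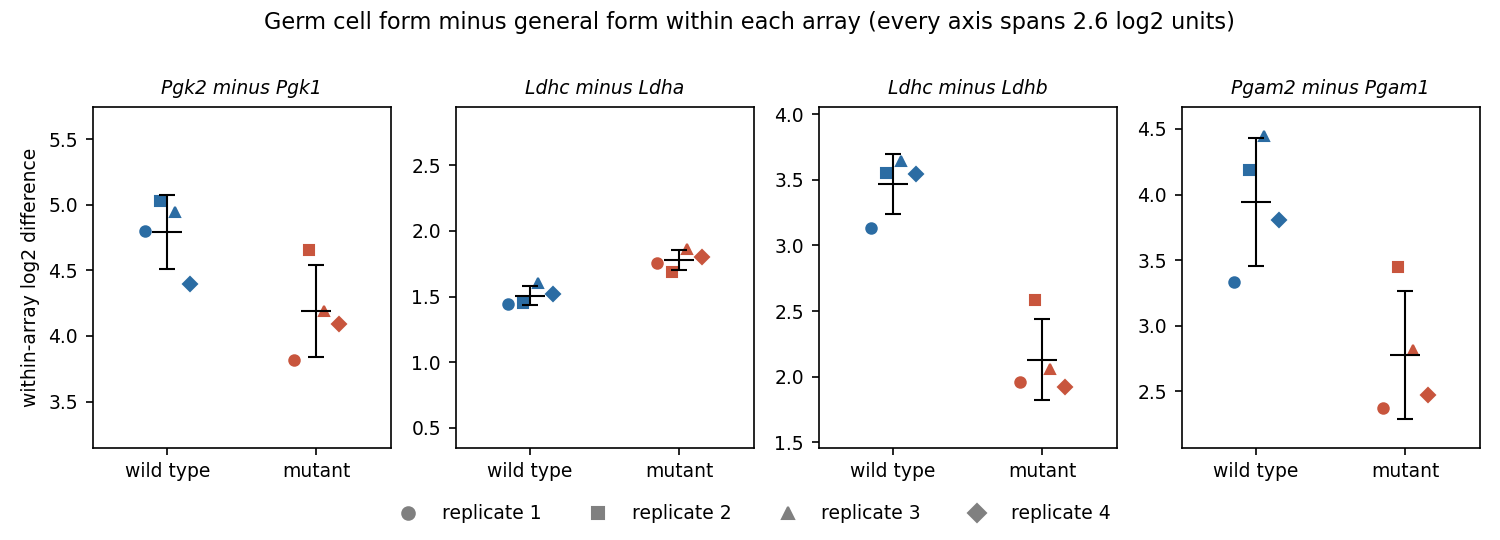
Log2 difference between a germ cell form and a general form within each array (vertical axis), in wild type (blue) and mutant (red), with mean and SD. The means of Ldhc minus Ldhb were 3.47 (wild type) and 2.13 (mutant), and those of Ldhc minus Ldha 1.51 and 1.78.

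Hk1 is known to give germ cell transcripts whose 5′ end differs from that of the somatic form, and its 6 probes spread along the gene on the minus strand of chromosome 10. From 5′ to 3′ they start at 61877109, 61834191, 61794421, 61790367, 61788725 and 61787906 (mm7), with gaps of 42.9, 39.8, 4.05, 1.64 and 0.819 kb. The first 30 bases of probe 1 and all bases of probes 2 and 4 are shown, because levels on these probes parted.
Hk1 probe 1: gatcagaaaaccccgcttctgaggacagaa
Hk1 probe 2: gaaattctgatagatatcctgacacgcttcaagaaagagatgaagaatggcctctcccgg
Hk1 probe 4: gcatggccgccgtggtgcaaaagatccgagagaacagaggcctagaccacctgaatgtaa
None of the 6 probes was called in the main scaling, with differences from -0.51 to -0.02. The 3′-most probe came closest, at 6.86, 6.93, 6.98 and 6.97 in wild type and 6.36, 6.67, 6.34 and 6.86 in the mutant, without overlap (-0.38, SE 0.15, adjusted p = 0.0776). It passed with scaling to the median (-0.60, adjusted p = 0.0124) and without mutant replicate 4 (-0.48, adjusted p = 0.0464), and its sign turned with quantile (0.0057) and cyclic loess normalization (0.14).

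Replicate 4 stood apart on 5 of the Hk1 probes in both genotypes. On probe 1 the wild type read 1.75, 1.50, 1.57 and -0.25 and the mutant 1.24, 1.63, 1.28 and -0.06. On probe 4 the wild type read 2.22, 2.37, 2.52 and 3.14 and the mutant 1.65, 1.95, 1.45 and 3.16. Replicate 4 was thus the lowest sample at the 5′ end and the highest further along the same gene. Against the mean of the other 3 samples, wild-type replicate 4 was -1.86 and -1.68 on probes 1 and 2 and 0.91, 0.77 and 0.86 on probes 3 to 5. Mutant replicate 4 was -1.44 and -0.78, then 1.29, 1.48 and 1.51. On the 3′-most probe the deviations were 0.05 and 0.40.

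The levels of cell type markers in replicate 4 stand beside this. Of 9 round spermatid genes, 7 were lowest in replicate 4 of both genotypes and 0 highest, with median deviations of -0.25 and -0.34. Spaca1 and Acrv1, which encode acrosome proteins, were the furthest down among them, at -1.41 and -1.25 in wild type and -0.81 and -0.78 in the mutant. Of 10 elongating spermatid genes, 4 were highest in both, among them Oaz3 and Spata18 (0.49 and 0.44 in wild type, 0.83 and 0.88 in the mutant), and 3 were lowest, among them Prm1 (-0.63 and -0.54). Of 7 peritubular and vascular genes, 5 were highest. Of 9 skeletal muscle genes 4 were highest and 0 lowest, and of 7 Leydig genes 3 and 1. The highest and lowest counts were 3 and 1 of 14 Sertoli genes and 3 and 1 of 9 spermatogonial genes. They were 2 and 0 of 8 macrophage genes, 0 and 2 of 9 late spermatocyte genes and 2 and 1 of 4 erythroid genes. Of the 27 other general genes described below, 8 were highest and 3 lowest, among them Eno1 (1.05 and 0.93) and Eno3 (-1.27 and -1.17). The share of all probes that were lowest or highest in replicate 4 of both genotypes was not counted, so these counts have no background. Over all probes tested, replicate 4 of the genotypes correlated at 0.609, and the replicate number also gives the place on the slide. The part of these in the Hk1 values was not tested.

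**Figure D4:**
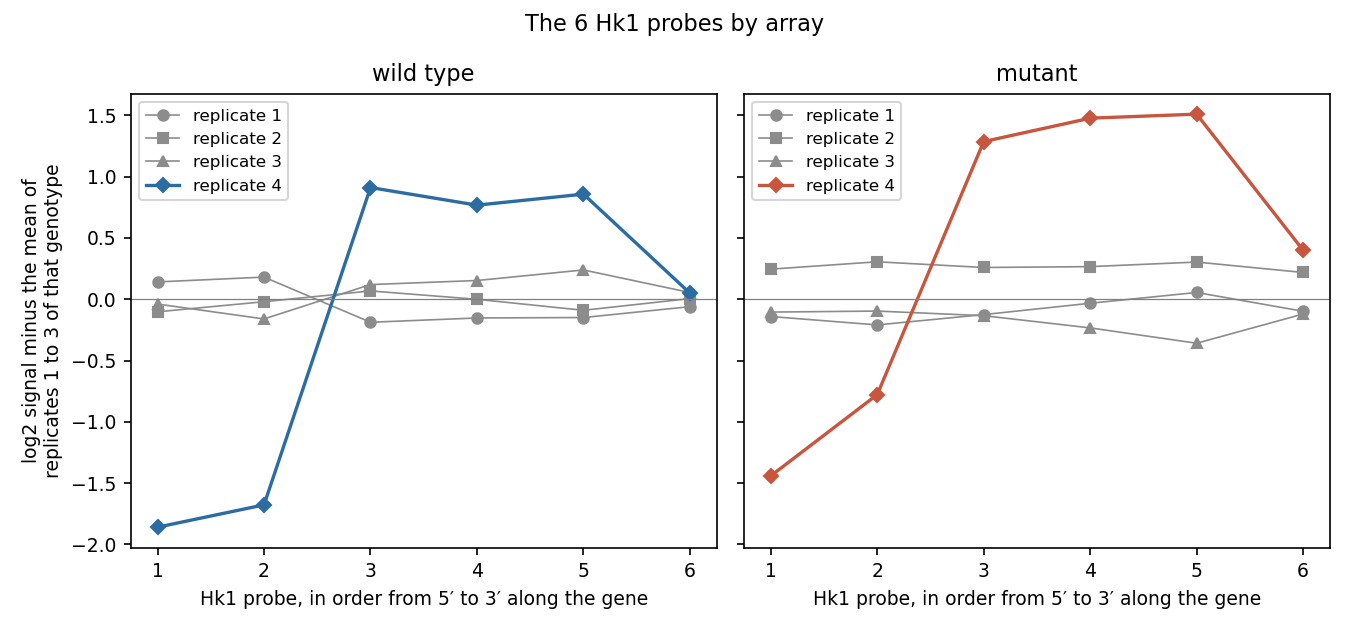
Log2 signal of the 6 Hk1 probes, in order from the 5′ to the 3′ end of the gene (horizontal axis), minus the mean of replicates 1 to 3 of the same genotype (vertical axis), for wild type (left) and mutant (right). Replicate 4, in colour, lay below the others on probes 1 and 2 and above them on probes 3 to 5 in both genotypes.

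Of 7 further germ cell enzymes of glucose and pyruvate use, 3 were lower, 0 higher and 4 not called by limma, with a median difference of -0.43. Over all probes tested, 10.8% were called lower and 21.2% higher. All of these enzymes but Eno4 had a mean level over 2. Among all probes at levels of 2 to 4, 4 to 6 and over 6, 28.1%, 37.3% and 38.3% were called lower. The median differences of those bands were -0.36, -0.45 and -0.44, near that of the list. In the band of Eno4, 0 to 2, 16.5% were called lower. At an unadjusted p under 0.05, 5 of the 7 were lower and 0 higher, against 18% and 27.8% of all probes tested. Pdha2, the testis form of the pyruvate dehydrogenase E1 alpha subunit, had the largest difference of these. It read 3.91, 4.17, 4.16 and 3.99 in wild type and 3.29, 3.49, 3.37 and 3.01 in the mutant (-0.77, adjusted p = 0.00616). Ldhal6b, a lactate dehydrogenase-like gene of the testis, fell by 0.69 (adjusted p = 0.0157), and Eno4, the sperm enolase, by 0.57 (adjusted p = 0.0189). Eno4 missed the threshold without wild-type replicate 3 (-0.52, adjusted p = 0.0567) or mutant replicate 3 (-0.51, adjusted p = 0.0585). Not called were the sperm glyceraldehyde phosphate dehydrogenase Gapdhs (-0.12), the aldolase copies Aldoart1 (-0.36) and Aldoart2 (-0.43) and the phosphofructokinase regulator Pfkfb4 (-0.36). Leaving out wild-type replicate 4 raised the count of lower genes to 5, with Aldoart1 at -0.42 (adjusted p = 0.0407) and Aldoart2 at -0.56 (adjusted p = 0.0174). Quantile and cyclic loess normalization each left 1 of the 7 lower, and scaling to the median called 6.

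Of 27 other general genes of glycolysis and pyruvate oxidation, 7 were higher, 5 lower and 15 not called, with a median of 0.11. Over all probes tested, 21.2% were called higher and 10.8% lower. Among those of the 27 well above background on all 8 arrays, 5 were higher and 5 lower, against 18.6% and 13.4% of all such probes. The lower count was 3 without wild type 2 or 3 or mutant 1, 3 or 4, and the higher count was 4 without mutant 1, 3 or 4. In those 5 fits 5.33%, 5.01%, 5.24%, 4.94% and 5.87% of all probes were lower. Without mutant 1, 3 or 4, 14.9%, 14.2% and 15% of all probes were higher. Ldhd, a D-lactate dehydrogenase, rose by 1.34 (adjusted p = 0.0026), while a dimmer Ldhd probe gave 0.52 (adjusted p = 0.0887). Pfkfb3, which makes an activator of phosphofructokinase, rose by 0.91 (adjusted p = 0.00331), though the other Pfkfb3 probes gave 0.15 and -0.33 and were not called. The falls with the smallest p were those of Pdhx and Dlat, subunits of the pyruvate dehydrogenase complex (-0.68 and -0.73, adjusted p = 0.00667 and 0.0159), and of Pfkp, a phosphofructokinase (-0.72, adjusted p = 0.0076). The other probes of Pdhx and Dlat gave -0.13 and -0.28 (adjusted p = 0.513 and 0.261), and the Dlat call was lost with quantile (-0.49, adjusted p = 0.0858) and cyclic loess normalization (-0.46, adjusted p = 0.115). A dimmer Pfkp probe, with 1 wild-type value left out, went the other way (0.89, adjusted p = 0.0174). The somatic E1 alpha subunit Pdha1 rose by 0.51 (adjusted p = 0.0310) where its germ cell counterpart Pdha2 fell. Pdha1 passed in 3 of the 8 fits that left out 1 array, and its adjusted p reached 0.0826 without wild-type replicate 2. It passed under none of the 4 other scalings, where it ran from 0.27 to 0.35 (adjusted p from 0.125 to 0.220). The other Pdha1 probe gave 1.00 (adjusted p = 0.00778).

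The general partners of the germ cell aldolases and enolase did not pass in the main scaling. Aldoa differed by 0.11 (adjusted p = 0.548, with mutant replicate 2 left out as an outlier spot) and Eno1 by -0.40 (adjusted p = 0.324). Pkm, the pyruvate kinase of the last step, differed by 0.18 (adjusted p = 0.344). Aldoa was called higher with quantile (0.56, adjusted p = 0.0266) and cyclic loess normalization (0.70, adjusted p = 0.0150). The sign of Aldoa and Pkm turned with scaling to the median (-0.11 and -0.04). The probe assigned to Gapdh exceeded the background clearly in 0 of 4 wild-type samples. Its wild-type level is therefore only a bound. Means were -5.90 and -4.62 in wild type and mutant, with wild-type replicates 1 and 4 at the floor of -6.12. In the main scaling, with the floor in place of lower signals, it was 2.43-fold higher in the mutant (adjusted p = 0.00126). The difference was 1.10 with scaling to the median, 0.97 with quantile and 1.09 with cyclic loess normalization, but -0.16 with normexp. No direction is given for it, although it is 1 of the 7 higher genes above.

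Markers of several testis cell types also differed between genotypes. Over all probes tested, 21.2% were called higher and 10.8% lower, and these shares change with the level as given above. All genes of the spermatocyte, spermatid and Sertoli lists exceeded background often enough to be tested. Of 9 late spermatocyte genes 6 were lower and 0 higher (mean level of the list per array, 4.03 to 4.18 in wild type and 3.14 to 3.80 in the mutant), and of 9 round spermatid genes 6 were lower and 0 higher (4.03 to 4.49 and 3.42 to 4.00). Of 10 elongating spermatid genes 2 were lower and 0 higher (5.83 to 6.75 and 6.32 to 6.58), with a median difference of -0.22. The lowest wild-type mean, 5.83 in replicate 1, holds an Odf2 level of 0.23, where the other wild-type samples read 8.90, 9.06 and 8.87. That range is therefore widened by 1 value of 1 gene. Of 9 spermatogonial genes tested 4 were higher and 0 lower (-1.28 to -1.12 and -0.90 to -0.62). Of 14 Sertoli genes 12 were higher and 0 lower (0.66 to 0.90 and 1.35 to 1.85). Of 8 macrophage genes 6 were higher (-1.84 to -1.53 and -1.49 to -0.44), and of 7 Leydig genes tested 4 were higher (1.64 to 2.42 and 2.62 to 3.24). Of 7 peritubular and vascular genes 2 were higher (-1.52 to -0.79 and -1.12 to -0.52), near the share of all probes. These were Pecam1 and Cdh5, while Acta2 (-0.31), Cnn1 (-0.03), Myh11 (0.54), Des (0.43) and Tek (0.33) were not called. Of 4 epididymal genes tested 3 were higher, with mean levels of 2.69 and 1.82 in mutant replicates 1 and 4 against -1.67 and -2.45 in replicates 2 and 3 and at most -3.18 in wild type. Lcn8, a defining epididymal gene, was above background on no array. The part of these cell types in the differences of the glycolytic genes was not tested.

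The genes whose profile over the 8 arrays, centred on its mean, was closest to each germ cell form were found among 18281 named genes by the root mean square difference. For Pgk2 they were Itga8 (0.0417), Kmt2b (0.0570) and Ngb (0.0580). For Ldhc they included Hdgfl2 (0.0301) and Spcs1 (0.0395), and for Pgam2 they were Mlf1 (0.0449), 4930503L19Rik (0.0531) and D16Ertd472e (0.0600). The members themselves varied over the arrays with SDs of 0.176, 0.239 and 0.345.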

How the data were processed

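The data are 8 single-colour Agilent arrays of total testicular RNA labelled with Cy3, 4 per genotype, grouped by the submitters' labels. The deposited intensity values are processed signals of Agilent Feature Extraction 9.5.3.1 (per the submitters' processing notes), background-subtracted and detrended within each array and not scaled between arrays, per the file headers. The mean and background signals, also deposited, were used for normexp (offset 50). The deposited value table held the same processed signal on all 45018 features, linear and uncentred, with column medians of 97.8 to 205.9.

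Each array was divided by its 75th percentile, raised to a floor of 0.01437 of it and converted to log2. Outlier spots were left out and repeated spots of a probe averaged. A probe was kept if 4 or more of the 8 arrays had it well above background, and the kept probes were fitted with limma 3.58.1 in R 4.3.3 (lmFit, eBayes, two-sided), with Benjamini-Hochberg adjustment over all 33718 probes. The fit was tested on simulated data. Where 1 probe stands for a gene, it is the kept probe of the highest mean level. Probe names come from RefSeq accessions for 22951 probes, and all 17 members matched by accession.

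Members, lists and tests were chosen with earlier results of these data known. Named were all members, all 7 further germ cell enzymes, the 3 further general genes with the smallest p in each direction, and Gapdh, Aldoa, Eno1, Pkm and Pdha1. The 3 closest profiles were named for each germ cell form, except that 1 is not reported here. Cell type markers named singly were chosen after their values were seen. Other scalings, filters, 1 probe per gene name, a replicate block and arrays left out were tried as alternatives. The number of arrays limits the precision, and no member probe was saturated.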

Additional observations from a re-analysis of the deposited data

Results flagged for a closer look

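In 6 of the 76 groups of 4 samples examined, 1 sample lay far from the other 3 by Dixon's criterion at the 95% level, which chance exceeds in about 1 of 20 groups. In wild-type replicate 4, Hk1 probe 1 (the 5′-most) read -0.25, Aldoart1 2.69 and Aldoart2 5.67, all below the other wild-type samples, and Eno1 read 1.32, above them. In wild-type replicate 1, Hk2 read 1.87, above the others, and Pfkp read 2.02, below them in a group whose SD was 0.025.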

How the results depend on the processing

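With normexp, 1 member probe was lower, and of the general pathway genes 3 were lower and 4 higher, while Gapdh turned to -0.16. Scaling to the median left 2 member probes higher, called 6 germ cell pathway genes lower, and turned Aldoa to -0.11 and Pkm to -0.039. Quantile normalization left 0 member probes, 2 general genes and 1 germ cell gene lower and turned Pgk2 (0.41), Hk1 (0.0057), Tpi1 (0.13) and Gapdhs (0.27). Cyclic loess left 0, 2 and 1 lower and turned Pgk2 (0.46), Ldhc (0.19), Pgam2 (0.027), Hk1 (0.14), Tpi1 (0.20), Gapdhs (0.39) and Aldoart2 (0.032). The cause was not tested.

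With 1 array left out, lower member probes ran from 1 to 4, higher ones from 4 to 5, lower and higher general genes from 3 to 5 and from 4 to 7, and lower germ cell genes from 2 to 5. Over all probes the lower share ran from 4.94% to 13.1% and the higher share from 14.2% to 21.8%. Pgk2 ran from -0.11 to 0.057. Without mutant replicates 1 and 4, counts were 0 and 0 for members, 0 lower and 3 higher for general genes and 0 lower for germ cell genes, and Pgk2 was 0.11, with fewer samples. The isoform pairs kept their direction in all 58 comparisons, but these are not independent checks. Scaling to the median and the replicate block leave the pair changes as they were by design. The fits with 1 array left out share most of their samples. With the replicate block or without mutant replicates 1 and 4 the design allows no p under 0.05, so those say nothing of their tests.

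The replicate numbers, which also give the place on the slide, correlated at 0.279, 0.235, 0.090 and 0.609. Different numbers correlated at -0.334 to 0.196, and each mutant sample correlated best with the wild-type sample of its own number. Replicate 3 reached only 0.090, and wild-type replicate 3 correlated better with mutant replicate 2 (0.196), so the numbers were not taken to pair samples. With the replicate block, 4 member probes were lower and 5 higher, 8 general genes were lower, Eno1 (-0.40, adjusted p = 0.0474) and Aldoart2 (-0.43, adjusted p = 0.0348) passed, and calls over all probes were 9242 higher and 5913 lower. The pair changes then had p = 0.125 by an exact sign-flip permutation, the smallest that 4 pairs allow.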
